A study of Rattus norvegicus with 8 samples.

Results

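Collagens, laminin chains and a set of other extracellular matrix genes were compared between the renal cortex of male and female rats. A gene belonged to the group when its symbol was Col, Lama, Lamb or Lamc followed by a number, or when it was *Fn1*, *Fbn1*, *Eln*, *Sparc*, *Dcn*, *Lum*, *Bgn*, *Nid1*, *Postn*, *Tnc* or *Hspg2*. A probe on the array had to carry a RefSeq accession of the gene, the brightest such probe stood for the gene, and it had to pass the software's test of being well above background on 4 arrays or more. The rule used how bright a probe was and not the sex of the rat. Of 66 protein-coding rat genes with such symbols, 36 were matched to 49 probes, and 32 of these genes passed the filter, out of 11827 named genes with a tested probe. Of the 32 genes, 31 were well above background on all 8 arrays. *Lama3* was well above background on 4 female and 2 male arrays, so that its female arrays alone met the filter. No gene lacked an array well above background in either sex. *Postn* and *Col13a1*, each well above background on 2 arrays, *Col23a1* and *Col9a3* stayed below the filter. Among the matrix genes typical of renal cortex, *Col4a2*, *Col4a3*, *Col4a5*, *Col6a1*, *Col15a1*, *Lama5*, *Nid1* and *Hspg2* had no probe matched by accession and were not analysed here.

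The rats were adult, untreated animals of the Han Wistar strain RCCHanTMWIST, 4 males and 4 females. One slice of renal cortex per rat, taken after the capsule had been removed, gave the RNA for 1 one-colour array. All 8 arrays lay on 1 slide that was scanned once, with 1 array of each sex in every column of the slide and 2 of each sex in every row. Controls apart, an array held 30367 probes, of which 73.8% to 79.1% were well above background. None of the spots was saturated. The level of a gene is given as the log2 of the probe's signal over the 75th percentile of all signals on that array, which lay between 5025 and 6547 signal units. A difference between the sexes is the mean of the males minus the mean of the females on this log2 scale, so that a positive value means a higher signal in males. It was tested with limma over 23425 probes, and a gene was called sex-dependent at a Benjamini-Hochberg adjusted p below 0.05. The 7 proximal tubule markers looked for, among them *Slc34a1* and *Lrp2*, were well above background on all arrays. Their summed log2 level was between 7.36 and 7.46 in females and between 7.4 and 7.48 in males. Single markers did differ, and 2 of the 7 were sex-dependent (28.6%, against 8.05% of all tested probes). *Cubn* was lower in males (−0.59, adjusted p = 0.00452 from limma) and *Slc22a6* was higher (0.38, adjusted p = 0.0153).

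The extracellular matrix is the protein scaffold between and beneath cells. In the kidney it is made of basement membranes, sheets of type IV collagen and laminin that underlie every tubule and form the filter of the glomerulus, and of a sparse interstitium in which fibroblasts and pericytes lay down fibrillar collagens, fibronectin and small proteoglycans. Laminins are trimers of an alpha, a beta and a gamma chain. Excess of interstitial matrix is the hallmark of renal fibrosis.

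Between male and female cortex, *Lamb3* and *Tnc* were sex-dependent, in opposite directions. *Lamb3*, which encodes the beta 3 chain of laminin-332, was 1.99-fold higher in males. *Tnc*, which encodes tenascin-C, a glycoprotein of remodelling and developing matrix, was 2.01-fold higher in females. The call of *Tnc* was lost in 13 of 18 alternative settings, and that of *Lamb3* in 0. Each of these genes had 1 probe, so the setting that took the second brightest probe of a gene could not change its call. The major collagens of the interstitium, the laminin chains *Lamb1*, *Lamb2* and *Lamc1* and the abundant proteoglycans were not called. The 2 called genes made up 6.25% of the 32, against 8.05% of all tested probes and 9.18% of the named genes taken at 1 probe each. Of the tested probes, 794 were called with the higher signal in males (3.39%) and 1092 were called with it in females (4.66%). With quantile normalization these numbers of called probes were 1075 and 899. With a log2 fold-change of at least 1 required as well, *Tnc* alone of the 32 genes was counted, against 1.89% of all tested probes. The matrix genes were thus not called more often than the probes of the array at large.

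The promoter sequences of the 2 sex-dependent genes are given here because only these genes of the group had an adjusted p below 0.05. Each line holds the 250 bases before the RefSeq start site in the rat assembly GRCr8, read 5′ to 3′ on the strand of the gene. The window of *Lamb3* is chr13:107362303-107362552 on the plus strand and that of *Tnc* is chr5:82476132-82476381 on the minus strand. Capitals mark the letters TGACGTCA, TATAA and GGGCGG, the cores of a cAMP response element, a TATA box and a GC box.
Lamb3: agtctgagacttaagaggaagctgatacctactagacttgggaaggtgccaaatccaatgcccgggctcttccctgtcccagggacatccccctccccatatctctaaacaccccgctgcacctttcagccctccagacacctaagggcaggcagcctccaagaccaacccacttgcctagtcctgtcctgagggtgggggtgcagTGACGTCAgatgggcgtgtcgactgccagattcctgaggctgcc
Tnc: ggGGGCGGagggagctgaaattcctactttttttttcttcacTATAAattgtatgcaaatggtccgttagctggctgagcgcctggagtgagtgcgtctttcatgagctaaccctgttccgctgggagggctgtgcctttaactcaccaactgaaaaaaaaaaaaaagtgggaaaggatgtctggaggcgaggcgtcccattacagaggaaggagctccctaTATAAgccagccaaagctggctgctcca

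In the promoter of *Lamb3*, 58.4% of the bases were G or C, and TGACGTCA began 44 bases before the start site (position −44). This motif was chosen after the window had been read, and on either strand it was present in 1.7% of 27457 rat promoter windows of the same length. The promoter of *Tnc* had 49.6% G or C, with TATAA beginning at −208 and at −28 and GGGCGG at −248. TATAA was present in 24.1% and GGGCGG in 32.4% of all windows. A promoter window was found for 21 of the 32 genes, and GGGCGG was present in 11 of them (52.4%), among them those of *Col4a1*, *Col18a1*, *Lamb1* and *Lamc1*. The median share of G or C was 60.4% over these windows and 52.0% over all windows. Because the study dealt with androgen and BCL6, their motifs were searched on both strands as well. TGTTCT, the half-site of the androgen response element, was in 5 of the 21 windows (*Col11a2*, *Col5a1*, *Col9a1*, *Lamc3* and *Lum*) and in 17.1% of all windows. The BCL6 motifs TTCCTAGAA and TTCCTCGAA were in 0 of the 21, and in 0.331% and 0.0583% of all windows. These are letter matches in short windows, and binding was not measured.

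**Figure D1:**
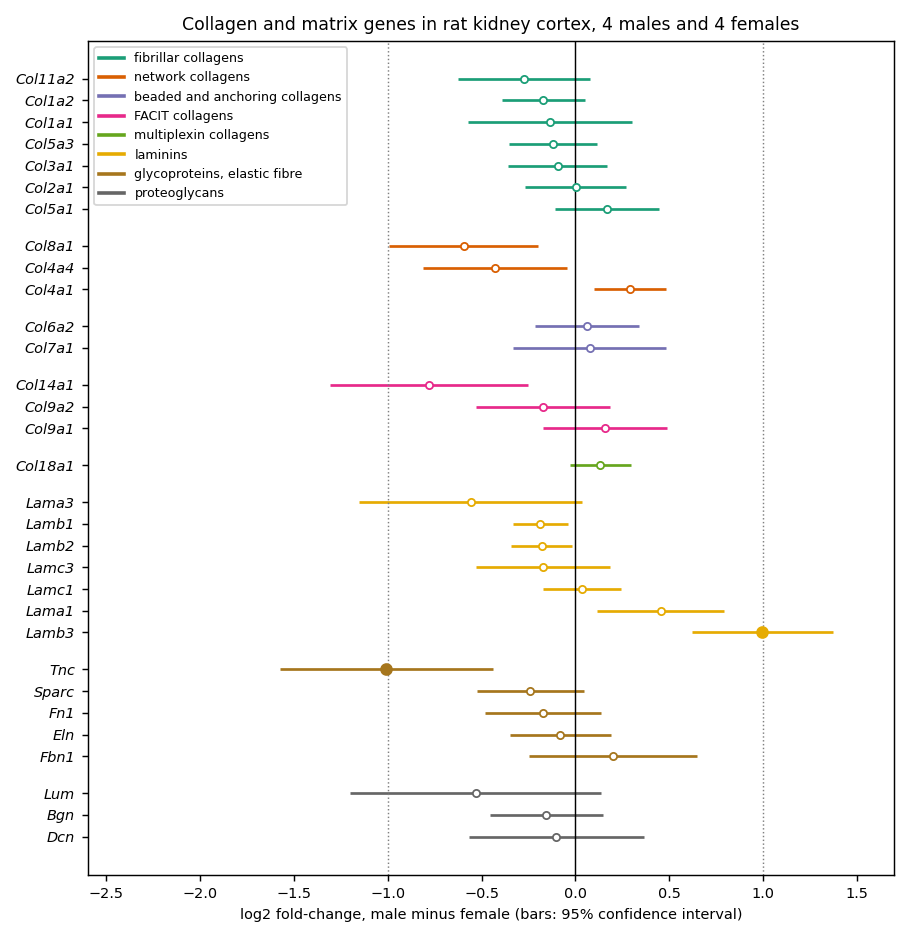
Log2 fold-change, male minus female, of 31 of the 32 collagen and matrix genes, grouped by role; bars are 95% confidence intervals from limma, filled points have an adjusted p below 0.05, and dotted lines mark a log2 fold-change of 1. *Lamb3* (1.00) lies at the right and *Tnc* (−1.01) at the left, and most of the other genes lie close to 0.

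Most of the group differed little between the sexes. The median log2 fold-change of the 32 genes was −0.13, with quartiles of −0.20 and 0.07, and that of all tested probes was −0.04. The median size of the difference, without its sign, was 0.17 for the matrix genes and 0.15 for all tested probes. The difference was positive for 12 genes and negative for 20, and it was below 0.25 in size for 22. An unadjusted p below 0.05 was found for 9 genes (28.1%), against 25.6% of all tested probes. The ranges of males and females were separate for 7 genes (21.9%), against 18.5% of all tested probes. Of these, *Col4a1* and *Lamb3* had every male above every female (2 genes, against 7.47% of all probes). *Col14a1*, *Col4a4*, *Lamb1*, *Lamb2* and *Tnc* had every male below every female (5 genes, against 11.0%). Among the 30 genes that were not called, the 95% confidence interval lay within 1 on the log2 scale in either direction for 27 and within 0.5 for 16. *Col14a1*, *Lama3* and *Lum* were the ones whose interval reached beyond 1, at most to 1.31. In RNA of whole cortex, fewer cells of a type and less RNA per cell cannot be told apart, which applies to every difference given here.

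The fibrillar collagens form the fibres of the interstitium, and 0 of the 7 measured were sex-dependent, with 0 at an unadjusted p below 0.05. *Col1a1* and *Col1a2* encode the chains of type I collagen, the main collagen of scars. The log2 level of *Col1a1* was −1.02, −0.94, −1.45 and −0.65 in females 1 to 4 and −1.10, −1.15, −0.83 and −1.51 in males 1 to 4. The sexes overlapped over nearly their whole range, and the difference was −0.14 (standard error 0.191, adjusted p = 0.705 from limma). *Col1a2* was at 2.07, 1.98, 2.04 and 2.25 in females and at 2.0, 1.76, 2.08 and 1.82 in males, a difference of −0.17 (adjusted p = 0.309 from limma). Both chains of type I collagen kept their proportion in the 2 sexes within the error, since the log2 ratio of *Col1a1* to *Col1a2* differed by 0.04 (two-sided exact permutation test, p = 0.943). *Col3a1*, which encodes type III collagen of the same fibres, was at 0.61, 0.50, 0.45 and 0.88 in females and at 0.33, 0.59, 0.66 and 0.48 in males, a difference of −0.09 (95% confidence interval −0.36 to 0.17). The chains of type V collagen, which starts fibre assembly, differed by 0.17 (*Col5a1*) and −0.12 (*Col5a3*). *Col2a1* and *Col11a2*, genes of cartilage collagens, differed by 0.00 and −0.27. For all 7 genes the interval lay within 1 on the log2 scale in either direction.

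The network collagens build sheets instead of fibres, and none of the 3 measured passed the adjusted p. All 3 had an unadjusted p below 0.05, as 25.6% of all tested probes did, and a second probe of *Col4a1* went the other way. *Col4a1* encodes a chain of the type IV collagen of all basement membranes. Its brightest probe was at 1.82, 2.08, 2.01 and 2.01 in females and at 2.38, 2.16, 2.33 and 2.22 in males. Every male was above every female, although by a small step, and the difference was 0.29 (standard error 0.0835, adjusted p = 0.0707 from limma). With an intensity trend and a robust prior in limma it was called, at an adjusted p of 0.0362. *Col4a4* encodes a chain of the type IV collagen of the mature glomerular basement membrane, which podocytes make. It was at 1.31, 1.55, 1.08 and 1.32 in females and at 1.01, 1.08, 0.41 and 1.05 in males. Male 3 was the lowest, and the ranges met at 1.08 without overlapping. The difference was −0.43 (adjusted p = 0.157 from limma). The summed level of the 7 podocyte markers moved the same way, from 3.92 to 3.99 in females and from 3.67 to 3.72 in males. Of the 7, 3 were sex-dependent and lower in males (42.9%, against 4.66% of all tested probes), among them *Cdkn1c* and *Podxl*. The slit diaphragm gene *Nphs1* differed by −0.16 and was not called. The part of podocytes in the difference of *Col4a4* was not tested. *Col8a1*, which encodes a short-chain collagen of vessels, differed by −0.60 (adjusted p = 0.0754 from limma). Without female replicate 4 it was called (−0.71, adjusted p = 0.0474).

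Of the 16 collagens in the group, *Col14a1* had the largest difference. It encodes type XIV collagen, a FACIT collagen, one of those that decorate the surface of fibres. *Col14a1* was at −2.49, −2.66, −3.38 and −3.25 in females and at −3.41, −3.64, −4.13 and −3.73 in males. Females 3 and 4 lay close to the highest male, and females 1 and 2 stood well above. The difference was −0.78, or 1.72-fold higher in females (standard error 0.231, adjusted p = 0.0779 from limma), and a dimmer probe of the gene gave −0.97 (adjusted p = 0.161). With the replicate number as a block it was called (adjusted p = 0.0288), although the numbers did not pair the rats. In the first row of the slide *Col14a1* differed by −0.25 and in the second by −1.31, with 2 rats of each sex per row. *Col9a1* and *Col9a2*, FACIT collagens of cartilage, differed by 0.16 and −0.17. *Col18a1*, which encodes the basement membrane collagen that yields endostatin, was between 0.45 and 0.67 in females and between 0.65 and 0.76 in males, a difference of 0.13 (adjusted p = 0.289 from limma). *Col6a2*, for a chain of beaded filaments, and *Col7a1*, for the anchoring fibrils of skin, differed by 0.06 and 0.07.

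The laminins held 1 sex-dependent gene of 8 (12.5%, against 8.05% of all tested probes), and 4 of the 8 had an unadjusted p below 0.05 (50%, against 25.6%). *Lamb3* was at −7.16, −7.46, −7.07 and −7.00 in females and at −5.80, −6.49, −6.07 and −6.36 in males. Every male lay above every female. Females averaged −7.17 ± 0.20 and males −6.18 ± 0.30 (SD, n = 4 each). The males exceeded the females by 1.00 on the log2 scale, with a standard error of 0.165 and an adjusted p of 0.0104 in limma. In the rows of the slide *Lamb3* differed by 0.96 and 1.03. The probe was dim, with a mean signal of 63.8, but well above background on all 8 arrays. Under normexp background correction, which adds 50 to every signal before the log is taken, the difference was 0.38 (adjusted p = 0.0193) and the gene was still called. *Lama3*, for the alpha chain of laminin-332, the laminin of epithelia under mechanical load, was not called. It was at −6.63, −6.88, −6.93 and −7.22 in females and at −7.48, −7.64, −8.04 and −6.74 in males, a difference of −0.56 (adjusted p = 0.220 from limma). On 2 male arrays its signal did not stand well above background, so that its difference and its ratio to other chains rest in part on male values near background. Without male replicate 4, the one male above some of the females, *Lama3* differed by −0.81 and was called (adjusted p = 0.0466).

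The remaining laminin chains are those of the common basement membranes of tubules and vessels. *Lamb1* was at 2.19, 2.07, 2.15 and 2.23 in females and at 2.0, 1.96, 2.0 and 1.91 in males. Every female was above every male, but the difference was −0.19 (standard error 0.0639, adjusted p = 0.111 from limma), a change of 1.14-fold. *Lamb2*, for the beta 2 chain of the glomerular filter and of vessels, was at −0.96, −0.92, −0.84 and −0.89 in females and at −0.98, −1.17, −1.02 and −1.15 in males, a difference of −0.18 (adjusted p = 0.158 from limma). These 2 beta chains had the smallest spread of the 32 genes within a sex, with standard deviations of 0.0563 and 0.0751. *Lamc1*, for the gamma chain that pairs with both, was between 0.26 and 0.54 in females and between 0.33 and 0.59 in males, a difference of 0.03 (adjusted p = 0.855 from limma). *Lama1*, for the alpha chain of embryonic and tubular basement membrane, differed by 0.45 (adjusted p = 0.103 from limma), and it was called with the row of the slide as a block (adjusted p = 0.0341) or without female replicate 4 (0.57, adjusted p = 0.0423). It differed by 0.40 and 0.50 in the rows. *Lamc3* differed by −0.17.

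Chains of one trimer were compared within each rat, which removes a difference in scale between arrays. The log2 ratio of *Lamb3* to *Lama3* was higher in every male than in every female, by 1.56 on average (two-sided exact permutation test, p = 0.0286, below which 8 rats in 2 groups cannot go, and 0.0857 adjusted over the 6 pairs), with *Lama3* near background in some males. The ratio of *Lamb1* to *Lamc1* was lower in every male, by 0.22 in size (exact permutation p = 0.0286, adjusted 0.0857). Those of *Lamb2* and *Lama1* to *Lamc1* differed by −0.21 and 0.42 with overlapping ranges (exact permutation p = 0.0571 and 0.0857). None of the 6 pairs passed 0.05 after adjustment.

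**Figure D2:**
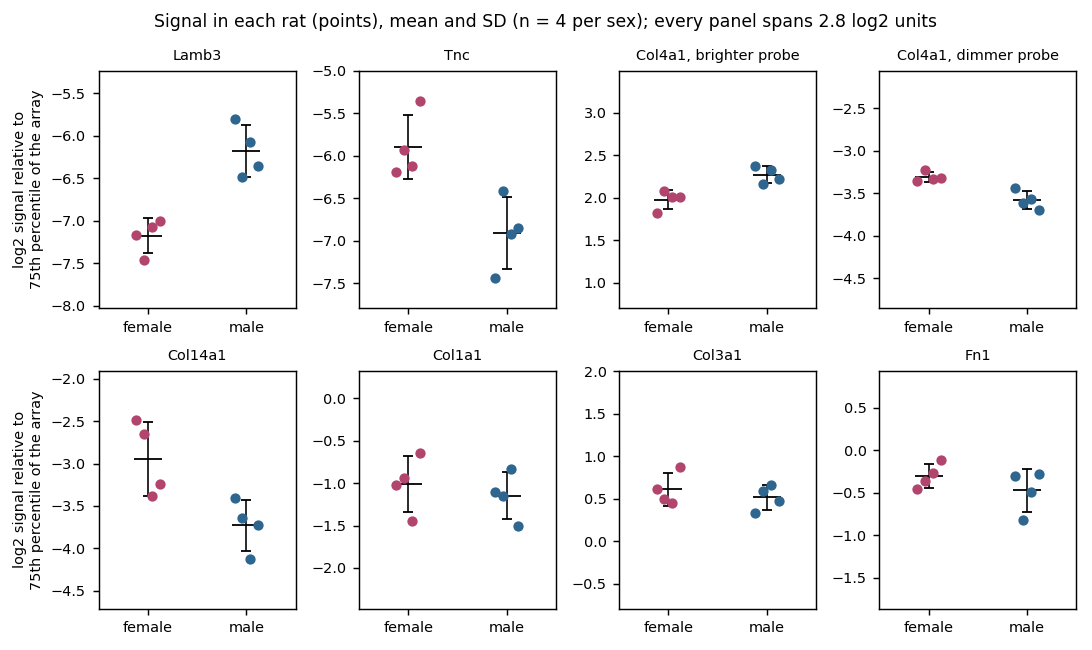
Log2 signal relative to the 75th percentile of the array in each rat (points), with the mean and SD of 4 rats per sex, for *Lamb3*, *Tnc*, both probes of *Col4a1*, *Col14a1*, *Col1a1*, *Col3a1* and *Fn1*; all panels span the same range of log2 units. The sexes are apart for *Lamb3* (males higher) and *Tnc* (females higher), they shift in opposite directions at the 2 probes of *Col4a1*, and they overlap for *Col1a1*, *Col3a1* and *Fn1*.

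Among the glycoproteins and elastic fibre proteins, *Tnc* was the 1 sex-dependent gene of 5 (20%, against 8.05% of all tested probes). *Tnc* was at −6.19, −5.93, −6.12 and −5.35 in females and at −7.44, −6.41, −6.92 and −6.85 in males. All males were below all females, and female 4 was the highest rat. Females averaged −5.90 ± 0.38 and males −6.91 ± 0.42 (SD, n = 4 each). The difference was −1.01, with a standard error of 0.248 and an adjusted p of 0.0452 in limma. The call lay at the edge of the threshold. It was kept without male replicate 2 (adjusted p = 0.0392) and lost without any one of the other 7 rats, at adjusted p between 0.0635 and 0.0997, and with quantile normalization (−0.90, adjusted p = 0.0886). Under normexp background correction the difference was −0.58 (adjusted p = 0.0514), and the mean signal of the probe was 75.1. In the rows of the slide *Tnc* differed by −1.41 and −0.61. The direction of *Tnc* was the same in each of these settings.

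Tenascin-C is known in kidney mainly from the medullary interstitium and from injured tissue, so markers of the inner medulla and of the urothelium were looked at beside it. The summed level of the 3 inner medulla and papilla markers on the array was between −0.70 and −0.12 in females and between −2.07 and −1.14 in males. This sum was mostly that of 1 gene, *Aqp4*, with a mean signal of 2835 against 286 for *Upk1b*. *Aqp4* was sex-dependent (−1.19, adjusted p = 0.0236 from limma), *Upk1b* differed by −0.20, and *Slc14a2*, the urea transporter that defines the inner medulla, did not rise well above background on any array. The urothelium and keratinocyte markers, 5 of 6 tested, summed to between −1.46 and −0.45 in females and between −1.61 and −1.55 in males. Taken singly, 0 of the 5 were called and 0 had separate ranges. *Itgb4*, the brightest, weighed most in the sum. It was at −0.71, −1.10, −2.00 and −1.84 in females and between −2.16 and −1.98 in males. *Upk2* was well above background on no array. Their part in the difference of *Tnc* was not tested.

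The other glycoproteins and elastic fibre proteins measured had overlapping ranges in the sexes and were not called. *Fn1* encodes fibronectin, on which collagen fibres are assembled. It was at −0.45, −0.36, −0.27 and −0.12 in females and at −0.30, −0.82, −0.50 and −0.28 in males, a difference of −0.17 (adjusted p = 0.467 from limma). *Sparc*, for the collagen-binding protein osteonectin, was at 3.51, 3.60, 3.79 and 3.98 in females and at 3.43, 3.37, 3.72 and 3.41 in males, a difference of −0.24 (adjusted p = 0.270 from limma). *Eln* and *Fbn1* encode elastin and the microfibril protein fibrillin-1. *Eln* was between −1.43 and −1.24 in females and between −1.74 and −1.22 in males, and *Fbn1* between −4.38 and −3.47 and between −4.06 and −3.66. They differed by −0.08 and 0.20.

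The small leucine-rich proteoglycans bind collagen fibres and set their width, and 0 of the 3 measured were sex-dependent. *Bgn*, for biglycan, was at 3.37, 3.54, 3.77 and 3.85 in females and at 3.34, 3.35, 3.72 and 3.5 in males, a difference of −0.16 (adjusted p = 0.508 from limma). *Dcn*, for decorin, was at 1.27, 1.95, 1.39 and 1.34 in females and at 1.48, 1.79, 1.29 and 0.98 in males, a difference of −0.10 (adjusted p = 0.795 from limma). *Lum*, for lumican, differed by −0.53 with an interval from −1.20 to 0.14, and males 3 and 4 were the lowest rats. The fibroblast and pericyte markers, 8 of 8 tested, had summed levels of 1.68 to 1.99 in females and 1.64 to 1.97 in males. The sum weighs bright markers most, and *Pdgfra*, the brightest, differed by −0.0002. Taken singly, 7 of the 8 were lower in males and 1 was higher, with a median log2 fold-change of −0.25. Of the 8, 1 was sex-dependent (12.5%, against 8.05% of all tested probes), *Thy1* (−0.57, adjusted p = 0.0391 from limma). The smooth muscle markers, 7 of 7 tested, ranged from 1.64 to 1.80 in females and from 1.54 to 1.88 in males.

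**Figure D3:**
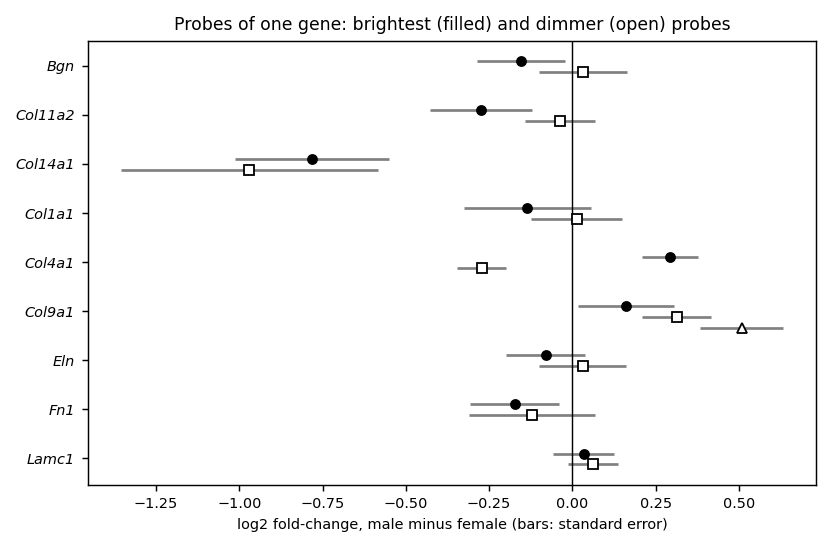
Log2 fold-change, male minus female, at the brightest probe (filled) and the dimmer probes (open) of the 9 matrix genes with more than 1 tested probe; bars are standard errors. The probes of *Col4a1* lie on opposite sides of 0, at 0.29 and −0.27, and those of *Col14a1* lie together at −0.78 and −0.97.

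A gene with more than 1 tested probe allowed the difference to be measured again at another stretch of the same transcript, and 10 such pairs of probes from 9 genes were compared. *Col4a1* was the gene whose probes went opposite ways beyond their standard errors. Its dimmer probe was at −3.36, −3.22, −3.32 and −3.32 in females and at −3.44, −3.62, −3.57 and −3.69 in males, so that here every male was below every female. The dimmer probe gave −0.27 (adjusted p = 0.0628 from limma) where the brighter gave 0.29. The log2 ratio of the brighter to the dimmer probe was 5.18 to 5.34 in females and 5.78 to 5.91 in males, a difference of 0.56 (two-sided exact permutation test, p = 0.0286, adjusted over the 10 pairs 0.286). The 2 probes thus gave no common direction for the gene. The probes of *Col9a1* differed by 0.16, 0.31 and 0.51, and the dimmest of them reached an adjusted p of 0.0459 from limma, while the brightest did not (0.537). For *Col1a1*, *Eln* and *Bgn* the second probe gave 0.01, 0.03 and 0.03 where the first gave −0.14, −0.08 and −0.16, and none of these probes was called. The probes of *Fn1* and *Lamc1* differed between the sexes by less than 0.25 each.

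**Figure D4:**
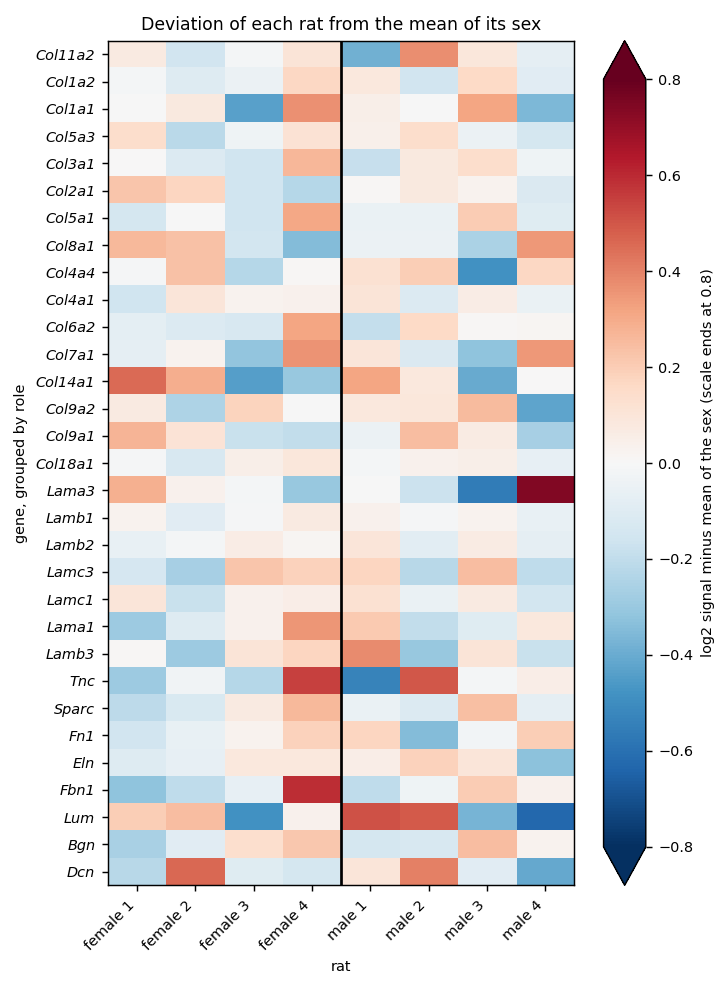
Deviation of the log2 signal of each rat from the mean of its sex for 31 of the 32 genes (colour scale in log2 units, ending at 0.8; rows grouped by role). Female 4 is the highest of its sex for 17 of the 32 genes and male 4 the lowest for 12, and deep colours are seen for *Lama3*, *Lum* and *Tnc*.

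Rats of one sex differed among themselves more in these genes than in the probes at large, with a median within-sex standard deviation of 0.226 for the 32 genes and 0.162 for all tested probes. The spread was wide for *Lum* (0.476), *Lama3* (0.421) and *Tnc* (0.402), all of them dim probes. Female 4 was the highest female for 17 of the 32 genes and stood at a median of 0.107 above the mean of its sex. Male 4 was the lowest male for 12 genes, with a median of −0.068. Without female replicate 4 the median log2 fold-change of the 32 genes was −0.08, and without male replicate 4 it was −0.06.

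**Figure D5:**
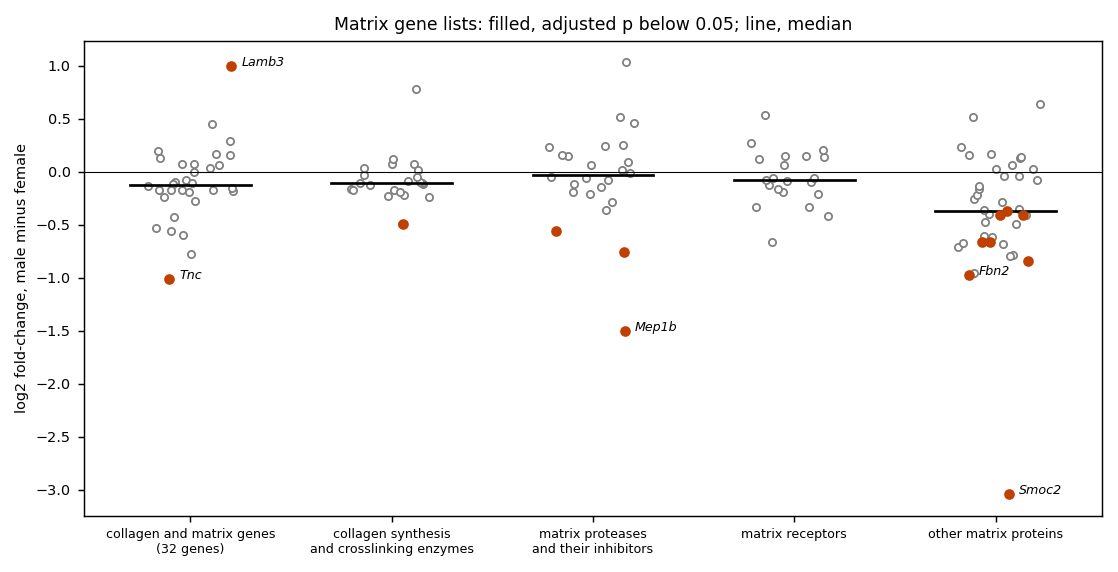
Log2 fold-change, male minus female, of the 32 collagen and matrix genes and of 4 lists of other matrix genes; each point is a gene, filled points have an adjusted p below 0.05, and lines are medians. The 12 filled points of the 4 lists lie below 0, the lowest being *Smoc2* at −3.04, and the list of other matrix proteins has the lowest median (−0.37).

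The enzymes, proteases, receptors and further proteins that act on or beside these genes were listed apart, and 108 of 146 listed genes were tested. Of these, 12 were sex-dependent (11.1%), against 8.05% of all tested probes and 9.18% of the named genes taken at 1 probe each. All 12 were higher in females, as were 1092 of the 1886 called probes and 575 of the 1085 called named genes. Genes called and higher in females were thus 11.1% of the 108, against 4.66% of all tested probes. Without female replicate 2, male replicate 2 or male replicate 4, 6 of the 108 genes were called. With quantile normalization, 1 of the 11 genes called was higher in males. The median log2 fold-change over the 108 genes was −0.12, beside −0.04 for all tested probes and −0.02 for the named genes. Markers of some nephron cells were mostly lower in males as well. The summed level of the 3 thick ascending limb markers was 5.85 to 6.03 in females and 5.57 to 5.79 in males, with 1 of the 3 called. That of the 5 collecting duct markers overlapped between the sexes, at 5.44 to 5.87 in females and 5.16 to 5.61 in males. Of these 5, 4 were lower in males and *Aqp3* was higher (0.31), with 0 called by limma and 2 at an unadjusted p below 0.05. *Aqp2* had the highest signal of the 5 and weighed most in the sum. The part of these cells and of podocytes in the differences of the lists was not tested. The collagen synthesis and crosslinking enzymes had 1 sex-dependent gene of 23 (4.35%), *P3h4*, for a partner of the collagen hydroxylases. It was at −3.30, −3.10, −3.11 and −2.99 in females and at −3.51, −3.70, −3.78 and −3.48 in males, a difference of −0.49 (adjusted p = 0.0222 from limma). *Tgm2*, for the crosslinking enzyme transglutaminase 2, had every male above every female by 0.78 on average and an adjusted p of 0.0560. The lysyl oxidase gene *Loxl4* differed by −0.49 (adjusted p = 0.0592).

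Of the matrix proteases and their inhibitors, 3 of 24 were sex-dependent (12.5%, against 8.05% of all tested probes). *Mep1b*, for the beta subunit of meprin, a brush border protease, was at 3.5, 2.94, 3.04 and 2.23 in females and at 1.71, 1.13, 1.43 and 1.45 in males. It was 2.83-fold higher in females (difference −1.50 ± 0.25, standard error, adjusted p = 0.0107 from limma). *Timp1*, for the inhibitor of matrix metalloproteinases, was at −0.92, −0.50, −0.39 and −0.71 in females and at −1.46, −1.38, −1.44 and −1.29 in males, a difference of −0.76 (adjusted p = 0.00791 from limma). *Plau*, for urokinase, an activator of plasmin, differed by −0.56 (adjusted p = 0.00284 from limma). For each of these 3 genes, every female was above every male. *Mmp12*, for macrophage elastase, differed by 1.03 with overlapping ranges (adjusted p = 0.0692). Of the 21 matrix receptors, 0 were sex-dependent in limma and 4 had an unadjusted p below 0.05, *Itgb6* being the nearest to the threshold (−0.41, adjusted p = 0.0772).

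The list of other matrix proteins held 8 sex-dependent genes of 40 (20%, against 8.05% of all tested probes), with a median log2 fold-change of −0.37 against −0.04. *Smoc2*, for a calcium-binding protein related to SPARC, had the largest difference. It was at 2.15, 1.71, 1.7 and 0.78 in females and at −1.15, −1.46, −1.30 and −1.93 in males, 8.23-fold higher in females (difference −3.04 with a standard error of 0.288, adjusted p = 0.00115 from limma). *Ntn4*, *Agrn* and *Tinagl1* encode the basement membrane proteins netrin-4, agrin and a relative of the tubulointerstitial nephritis antigen. They differed by −0.67, −0.38 and −0.41, with adjusted p from limma of 0.00277, 0.0253 and 0.0256. *Fbn2* and *Efemp1*, both of elastic fibres, differed by −0.97 and −0.40, at adjusted p from limma of 0.0459 and 0.0440. *Sparcl1*, another relative of *Sparc*, differed by −0.66 and *Fgl2* by −0.84. *Mep1b*, *Ntn4*, *Plau*, *Smoc2* and *Timp1* were called under all 18 alternative settings. The setting with the second brightest probe left the values of these genes as they were and could not change their calls. The other 7 of the 12 genes of the lists lost their call in some of them, *Fbn2* in 13 (adjusted p up to 0.112), *Efemp1* in 10 (up to 0.108), *Fgl2* in 8, *Agrn* and *Tinagl1* in 7 each, *Sparcl1* in 6 and *P3h4* in 5. Most of these losses came from leaving out a single rat, and *Fbn2* was lost without any one of the 8 rats.

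For 2 further collagens the accession of the probe was not in the gene table, and their names come from a list that the study drew up on these same arrays. They lie outside the rule above, were chosen for their difference and are described without a test. *Col17a1* encodes a membrane-spanning collagen of hemidesmosomes, the anchors of epithelial cells to laminin-332. Its brighter probe was at −0.18, −0.10, 0.73 and −0.68 in females and at −2.99, −3.77, −5.16 and −4.89 in males, and a dimmer probe differed by −2.34. *Col24a1*, for a fibrillar collagen, was at −1.56, −3.51, −2.89 and −3.73 in females and at −7.64, −8.70, −8.44 and −8.27 in males, where it was well above background on 1 of 4 arrays. Both genes were thus far lower in every male than in any female.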

How the data were processed

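Total RNA of cortical slices from 4 male and 4 female rats was labelled with Cy3 and hybridized to SurePrint G3 rat arrays, 1 rat per array. For every array the authors deposited the intensity of 62976 spots as processed by Feature Extraction 10.7.3.1, which subtracts background and spatial trend within an array and leaves arrays unscaled against each other. Local background and spot medians and the spot flags, in other units per the file headers, came with them. The authors also deposited log2 values, which hold one distribution on every array and keep the rank order of the signals. The submitters' processing notes name limma 3.8.2, and the steps are not given in the sources used here. The file headers name the genome build rn4.

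Here, outlier spots were dropped, intensities were put on the log2 scale relative to the 75th percentile of their array, and replicate spots were averaged per probe. Probes well above background on at least 4 arrays, in the majority of their spots, were tested with limma 3.58.1 in R 4.3.3 (lmFit and eBayes, male minus female, no covariates), with Benjamini-Hochberg adjustment over 23425 probes. Single ratios were compared by a two-sided exact permutation test over the 70 assignments of 8 values to 4 and 4. Across tested probes the correlation between arrays was 0.992 to 0.995 within a sex and 0.983 to 0.991 between the sexes.

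Names came from the RefSeq accession of 17514 probes, through a gene table of the assembly GRCr8, from which no gene positions were taken. The promoter sequences are those of RefSeq on the same assembly. Every gene with an adjusted p below 0.05 was named, together with textbook matrix genes of renal cortex and, from each other list, the genes with a log2 fold-change of at least 1 or the smallest adjusted p. The remaining genes of the group were named after their values were seen, and 1 gene of the group and some markers are not reported here. The group, the lists and the tests were chosen with earlier results of these data known.

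In simulated data of the same size, with 200 of 23425 probes changed in the comparison of males with females, 37.5% were recovered at a log2 size of 0.5, 78.5% at 1 and 94.0% at 2. The number of arrays limits the precision. Alternatives were quantile normalization, the authors' log2 values, normexp background correction of the median spot signal with an offset of 50, other filters on dim probes, outlier spots kept, an intensity trend with a robust prior, the replicate number or the slide row as a block, leaving out each array, and the second brightest probe of a gene. Real-time PCR and luciferase data were not analysed here.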

Additional observations from a re-analysis of the deposited data

Results flagged for a closer look

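In 34 groups of 4 rats (both sexes of the 17 genes of the group that the naming rule lists), 2 rats lay far from the other 3 of their sex, where chance gives about 1 in 20 groups, or 1.7 here. Male 3 was at 0.41 for *Col4a4*, below the other males at 1.01 to 1.08. Male 3 was also at 3.72 for *Sparc*, above the other males at 3.37 to 3.43.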

How the results depend on the processing

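*Lamb3* was called under every alternative run, with a log2 fold-change from 0.38 under normexp to 1.12 with quantile normalization, and no alternative reversed *Lamb3* or *Tnc*. The number of sex-dependent genes among the 32 fell from 2 to 1 with quantile normalization, with the authors' log2 values, under normexp and without a filter on dim probes, and in each of these 0 were higher in females, since *Tnc* was lost (adjusted p between 0.0514 and 0.0886). With the slide row as a block, 2 were higher in males (*Lamb3* and *Lama1*) and 0 in females. With an intensity trend and a robust prior, 3 were called and 2 were higher in males. Past the fold as well, 0 genes were counted under normexp, without a filter, with the replicate block and with the slide row as a block. Of the 108 genes of the other lists, 1 was higher in males with quantile normalization, 2 under normexp, 3 with the filter set to all 8 arrays and 3 with the intensity trend. Leaving out 1 rat at a time gave 1 to 3 genes called among the 32, 1 to 2 higher in males, 0 to 1 higher in females, 0 to 2 past the fold, a median log2 fold-change of −0.158 to −0.0571, and 6 to 11 genes of the other lists, 0 to 2 of them higher in males. It gave −0.026 to 0.082 for *Lamc1*, −0.238 to 0.051 for *Dcn* and −0.141 to 0.030 for *Eln*, none called. At the second brightest probe the direction turned for *Col1a1* (0.012), *Col4a1* (−0.273), *Eln* (0.031) and *Bgn* (0.031). Over all probes, 1192 were called without a filter, 1025 with the replicate block and 1012 to 1539 without 1 rat, against 1886. The replicate numbers did not pair the rats: same-numbered rats correlated at 0.125, 0.0437, −0.0077 and 0.116, and not every rat matched its own number best. With that block, 2 of the 32 genes were called (*Col14a1* and *Lamb3*), and *Tnc* had an adjusted p of 0.0514. Probes near background, such as those of *Lamb3*, *Tnc*, *Lama3* and *Lum*, limit how well a fold is known.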
